A study of Mus musculus with 11 samples.

Results

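The Wnt ligands described here were Wnt2b, Wnt4, Wnt5a, Wnt5b, Wnt6, Wnt9a, Wnt10a, Wnt10b, Wnt11 and Wnt16, measured in whole distal tibia of mice with and without genetic depletion of bone marrow adipocytes (BMAds). They were found by gene symbol and made up 10 of the 22600 genes in the merged count table. Their values were taken in all 11 libraries, 4 from Control mice and 7 from BMAd-DTA mice. All mice were C57BL6/SJL, 24 weeks old and fed ad libitum. Every mouse, Controls included, carried Osterix-FLPo and FAC, a Cre cassette in the Adipoq gene that FLPo turns into reading orientation, so that Cre was made in cells that had expressed Osterix and expressed Adipoq. BMAd-DTA mice also carried ROSA-DTA, in which Cre removes a stop cassette and allows diphtheria toxin A to be made. The Controls, labelled BMAd-WT for genotype, lacked that allele. The model reaches a small subset of marrow adipogenic precursors besides BMAds, recombination was not complete, and some BMAds remained. The comparison asks how Wnt ligand RNA in bone differs when BMAds are depleted.

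Wnt ligands are secreted glycoproteins that carry a fatty acid on 1 conserved serine. The enzyme Porcupine (Porcn) adds the lipid, Wntless (Wls) escorts the ligand to the cell surface, and Frizzled receptors bind the lipid in a groove. With the co-receptors Lrp5 and Lrp6, a ligand stabilises beta-catenin, which drives Tcf and Lef target genes, raises bone formation by osteoblasts and holds back adipogenesis. Other ligands act mostly without beta-catenin, through Ror receptors and the planar polarity pathway.

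The bases around the acylated serine are shown because this site defines a working ligand. The 10 codons that hold it are spelled differently in every member, although some members share the serine codon itself. Each line gives 10 codons of the sense strand from GENCODE M21 transcripts, 5′ to 3′, with the codon of the acylated serine in capitals.
Wnt10b: tgcaaatgccatggaacgTCAggcagctgc
Wnt10a: tgcaaatgccacggcaccTCAggcagctgc
Wnt6: tgtaagtgccatgggcttTCGggttcctgc
Wnt4: tgcaagtgtcacggggtgTCGggctcctgc
Wnt5a: tgtaagtgtcatggagtgTCTggctcctgt
Wnt5b: tgcaaatgtcacggagtcTCCgggtcctgc
Wnt11: tgtaaatgccatggggtgTCTggctcctgc
Wnt9a: tgcaaatgccatggtgtgTCTggctcctgc
Wnt16: tgccgctgccacggagttTCCggctcctgt
Wnt2b: tgcaagtgtcacggtgtgAGTggctcctgt
The serine was spelled with a codon starting TC in 9 members and with AGT in Wnt2b. Over the 45 pairs of members, between 18 and 28 of these 30 bases were identical, with a median of 22. Wnt9a and Wnt11 shared 28 bases, Wnt10a and Wnt10b shared 27, Wnt5a and Wnt5b shared 23, and Wnt2b shared 18 with Wnt10a and with Wnt10b. Across whole transcripts the longest identical run between any pair of members was 29 bases, between Wnt5a and Wnt5b, which is shorter than 1 sequenced read.

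In GRCm38 coordinates, each window lay within 1 exon, and in 8 of 10 members that was the last exon. The Wnt10b window was at chr15:98772878-98772907 on the minus strand in exon 5, the Wnt10a window at chr1:74803150-74803179 on the plus strand in exon 4, and the Wnt6 window at chr1:74784166-74784195 on the plus strand in exon 4. The Wnt4 window was at chr4:137296339-137296368, plus strand, exon 5. Those of Wnt5a and Wnt5b were at chr14:28522509-28522538, plus strand, exon 5, and at chr6:119433800-119433829, minus strand, exon 5. The Wnt11 window was at chr7:98850254-98850283, plus strand, in exon 6 of 7. That of Wnt9a was at chr11:59330920-59330949, plus strand, exon 4, and that of Wnt16 at chr6:22297794-22297823, plus strand, exon 4. The Wnt2b window was at chr3:104951220-104951249, minus strand, in exon 4 of 5. As a locus, Wnt6 (chr1:74771892-74785322) and Wnt10a (chr1:74791516-74804179) were neighbours on the same strand, 6193 bases apart. Wnt10b (chr15:98770712-98778150) lay 11706 bases from Wnt1, on opposite strands. The members are therefore scattered over 8 chromosomes, with Wnt6 and Wnt10a as 1 cluster.

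Libraries held 16969529 to 18637663 gene counts, with medians of 17701061 in Controls and 17612195 in BMAd-DTA, and 16496 genes passed the filter on low counts. Across those genes the quasi-likelihood test of edgeR, adjusted by the Benjamini-Hochberg method, called 13, which is 0.0788%, and 12 of them (0.0727%) were higher in BMAd-DTA. Sums of cell type markers differed between libraries. Summed CPM, counts scaled to the library total, of the 10 osteoblast and osteocyte markers were 2822 to 12780 in Controls and 15081 to 35627 in BMAd-DTA, without overlap, and all 10 markers had a positive log2 fold change, while none passed the adjusted test and 10 had an unadjusted p under 0.05. Adipocyte markers summed to 711 to 1434 CPM in Controls and 283 to 926 in BMAd-DTA, with 0 of 8 positive. Skeletal muscle markers ranged from 14.5 to 998 CPM in Controls and from 15.4 to 801 in BMAd-DTA, highest in Control replicate 3. Although these ranges overlapped, 0 of the 10 muscle markers were positive, and their log2 changes centred on a median of -0.94. By edgeR 0 of them had an unadjusted p under 0.05. RNA of a whole bone cannot tell fewer cells of a type apart from less RNA per cell. All 11 libraries also carried high Xist and at most 1 count of Y-linked genes. That is the pattern of female mice. The labels give no sex, and the figure legends that cover the RNA-seq describe male mice.

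The Wnt ligands were low-abundance RNAs, and a few of them held most of the total. Levels were compared between genes as CPM per kb of exon, averaged over the 11 mice. Wnt10b, a ligand that promotes bone formation and blocks adipogenesis, came first at 2.57 ± 0.835 (SD). Wnt4, which acts in kidney, gonad and bone, followed at 2.02 ± 1.07, and Wnt5b, a cartilage regulator, at 1.61 ± 0.541. Wnt5a, the main beta-catenin-independent ligand and a binder of Ror2, was at 0.962 ± 0.205. These 4 ligands together held between 66.3% and 88.2% of the summed length-corrected level in a mouse, with a median of 74.0%. Wnt10b led in 9 mice and Wnt4 in 2.

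The remaining 6 members were lower still. Mean levels were 0.606 ± 0.253 CPM per kb for Wnt9a, a joint-forming signal, 0.492 ± 0.154 for Wnt16, an osteoblast-derived ligand that protects cortical bone, and 0.440 ± 0.296 for Wnt6. Wnt11 was at 0.353 ± 0.123, Wnt10a at 0.330 ± 0.207 and Wnt2b at 0.115 ± 0.123. No pair of neighbours in this order had separate ranges over the 11 mice. The step with the most regular order was from Wnt5b to Wnt5a, which held in 11 of 11 mice, and the least regular was from Wnt11 to Wnt10a, which held in 6 of 11. When length was taken from the longest transcript, 8 of 10 ranks were kept, and Wnt9a and Wnt16 traded places.

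**Figure D1:**
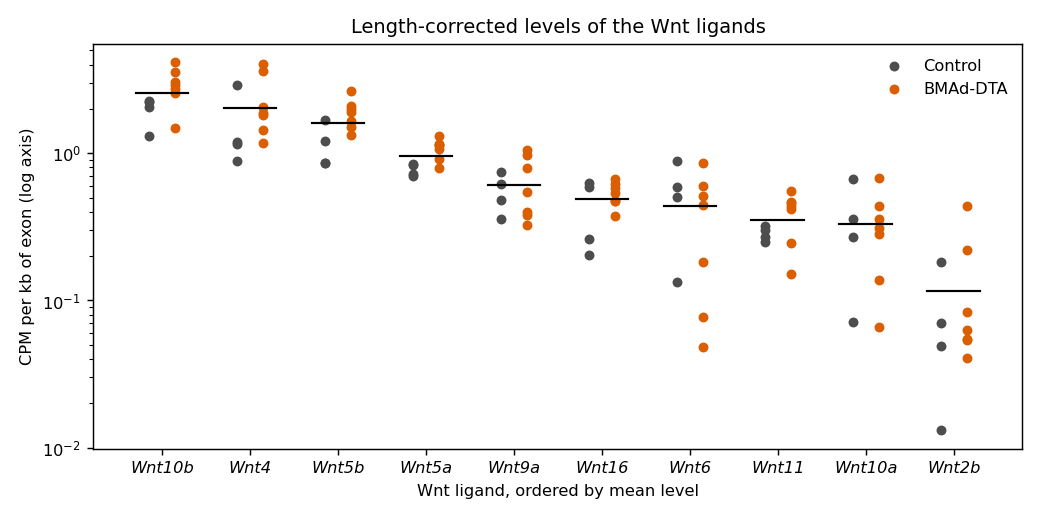
Length-corrected level (CPM per kb of exon, log axis) of each Wnt ligand in 4 Control and 7 BMAd-DTA mice, ordered by the mean over all 11 mice, which is the black line. Wnt10b, at a mean of 2.57, and Wnt2b, at 0.115, are the ends of the order, and the points of neighbouring genes overlap.

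Between genotypes, 7 of the 9 tested ligands had a higher fitted level in BMAd-DTA, with the clearest differences in Wnt5a, Wnt5b and Wnt10b, but none passed the adjusted test. The other member, Wnt2b, failed the low-count filter. The background was 50.4% of all tested genes with a positive log2 fold change. The members' median log2 fold change was 0.45 beside 0.0018 over all genes tested. With 0 of 9 called by edgeR, 3 had an unadjusted p under 0.05, all higher in BMAd-DTA, against 16.4% of all tested genes in either direction and 7.89% in that one. DESeq2 called 1 member, Wnt5a, against 5.42% of the genes to which it gave an adjusted p, or 2.78% in the higher direction. No member had groups that did not overlap, whereas 2.81% of all tested genes did, 1.78% with BMAd-DTA higher.

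Summed over the 10 members, the CPM was 28.1, 27.8, 39.9 and 21.7 in Control replicates 1 to 4. In the 7 BMAd-DTA mice it was 29.5 at the lowest, 40.1 at the median and 51.2 at the highest. The sum in 4 BMAd-DTA mice was above every Control, and Control replicate 3 lay inside the range of BMAd-DTA. The makeup of the sum is given by the share of each ligand. Wnt10b held 26.1% ± 4.37 of the summed CPM per kb in Controls and 27.1% ± 3.31 in BMAd-DTA, and Wnt4 held 18.96% ± 5.73 and 21.1% ± 6.87. The share of Wnt6 was 6.95% ± 3.68 in Controls and 3.74% ± 2.97 in BMAd-DTA, and that of Wnt10a was 4.36% ± 2.57 and 3.21% ± 2.01. For each of these 4 ligands the shares of the genotypes overlapped.

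**Figure D2:**
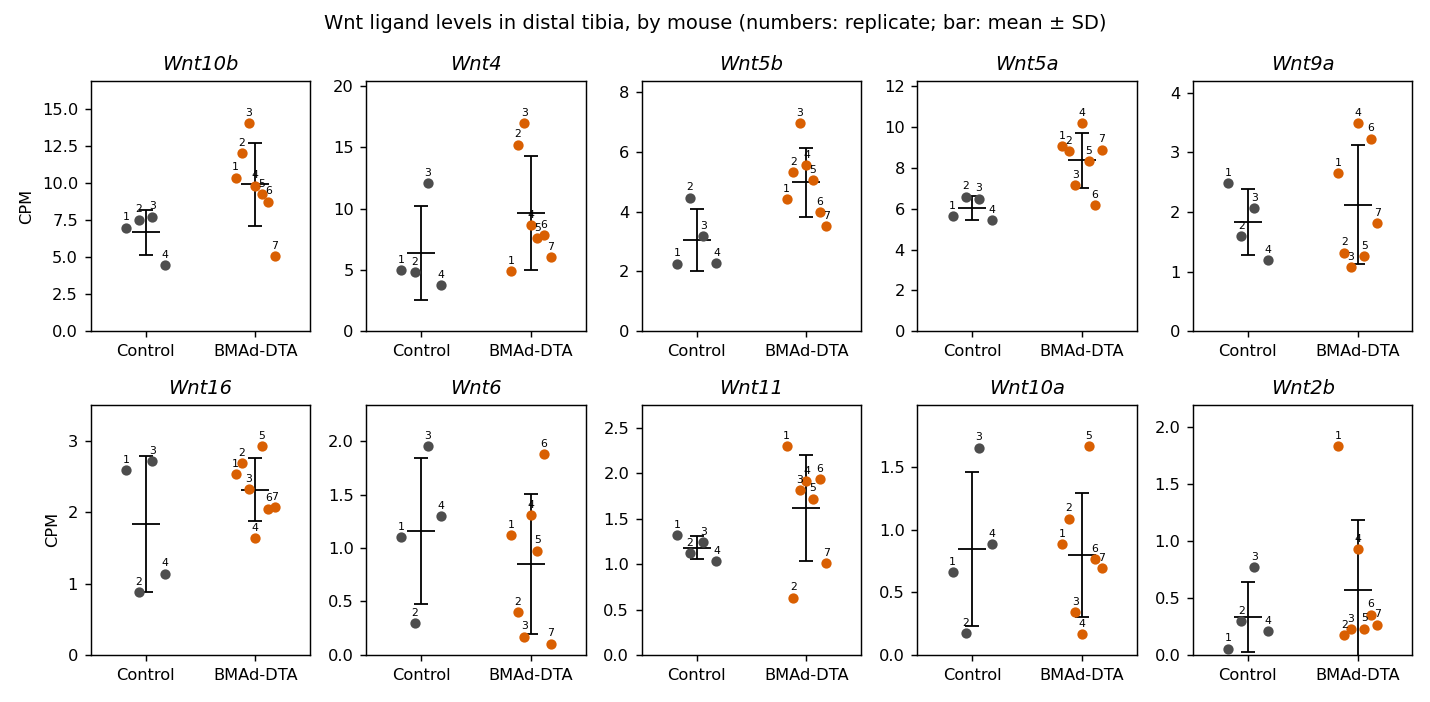
CPM of each Wnt ligand in every mouse, with linear axes from 0, points numbered by replicate and bars giving the group mean ± SD (Control n = 4, BMAd-DTA n = 7). For Wnt5a and for Wnt10b, 6 BMAd-DTA points lie higher than any Control point, and the groups of every ligand overlap.

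Of the ligands that act mainly without beta-catenin, Wnt5a had the smallest p. Its CPM was 5.62, 6.60, 6.50 and 5.44 in the Controls and 6.16, 8.83 and 10.2 at the lowest, median and highest BMAd-DTA mouse. Every BMAd-DTA mouse but replicate 6 exceeded the highest Control. The mean was 6.04 ± 0.592 CPM in Controls and 8.38 ± 1.34 in BMAd-DTA, and the log2 fold change was 0.47 (SE 0.15, 95% interval 0.16 to 0.79). The edgeR adjusted p was 0.131 and the DESeq2 adjusted p was 0.0489. By p it stood 778th of the 16496 genes tested.

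Wnt5b, the close relative of Wnt5a, was at 2.26, 4.48, 3.19 and 2.28 CPM in the Controls. In BMAd-DTA it ran from 3.52 through a median of 5.05 to 6.98. Control replicate 2 lay within the BMAd-DTA range, and 4 BMAd-DTA mice exceeded it. The log2 fold change was 0.71 (SE 0.24, 95% interval 0.20 to 1.22), with an edgeR adjusted p of 0.156 and a DESeq2 adjusted p of 0.0554.

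Wnt11, which acts in convergent extension and in kidney branching, was tightly grouped in Controls at 1.32, 1.12, 1.24 and 1.04 CPM. In BMAd-DTA it spanned 0.630 to 2.30 with a median of 1.82. The BMAd-DTA values lay on either side of the Controls, with 5 above all of them and 2 below. The log2 fold change was 0.45 (SE 0.32), and the edgeR adjusted p was 0.520.

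Among the ligands that repress adipogenesis through beta-catenin, Wnt10b was the most abundant and stood apart from Wnt6 and Wnt10a. The Controls had 6.999, 7.54, 7.74 and 4.46 CPM of Wnt10b, and BMAd-DTA ran from 5.06 through 9.83 to 14.1. Every BMAd-DTA mouse but replicate 7, 6 in all, exceeded the highest Control. The mean was 6.68 ± 1.52 CPM in Controls and 9.91 ± 2.81 in BMAd-DTA, with a log2 fold change of 0.57 (SE 0.24, 95% interval 0.056 to 1.08) and an edgeR adjusted p of 0.249.

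Wnt6 and Wnt10a, neighbours on chromosome 1, had fitted changes below 0. Wnt6 was at 1.10, 0.294, 1.95 and 1.30 CPM in the Controls and at 0.107, 0.976 and 1.88 at the lowest, median and highest BMAd-DTA mouse, where its lowest library had 2 counts. The ranges lay almost on top of one another, and the log2 fold change was -0.45 (SE 0.63, 95% interval -1.82 to 0.92, edgeR adjusted p = 0.784). Wnt10a was at 0.661, 0.177, 1.66 and 0.881 CPM in the Controls and at 0.164, 0.763 and 1.66 in BMAd-DTA. It had a log2 fold change of -0.079 (SE 0.57, edgeR adjusted p = 0.968), and its interval of -1.31 to 1.15 spans changes of either sign.

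Of the other ligands with roles in bone and joints, Wnt4 varied most between mice. Its CPM was 4.96, 4.83, 12.1 and 3.73 in the Controls, and it ran from 4.89 through 7.87 to 17.0 in BMAd-DTA. Control replicate 3 was higher than 5 of the 7 BMAd-DTA mice, while the other Controls were near the bottom of the whole range. The log2 fold change was 0.59 (SE 0.39, edgeR adjusted p = 0.481), and without Control replicate 3 it was 1.10 with an adjusted p of 0.129. Without BMAd-DTA replicate 3 it was 0.39. Control replicate 3 had the highest sums of skeletal muscle, osteoblast and adipocyte markers among Controls. The highest Wnt4 values were 15.2 and 17.0 CPM, in BMAd-DTA replicates 2 and 3. Muscle sums there were 15.4 and 20.5 CPM, and the osteoblast and osteocyte sums, 31334 and 35627 CPM, were the highest of all mice. Wnt4 was at 4.83 and 3.73 CPM in Control replicates 2 and 4, where osteoblast and osteocyte sums were 11210 and 11216 CPM. In BMAd-DTA replicate 1 it was at 4.89 CPM with a sum of 15081 CPM. Most of that sum was Col1a1 and Col1a2, at 7609 and 5464 CPM. Single markers ordered these mice differently. Runx2 was at 139, 105 and 123 CPM in BMAd-DTA replicates 1, 2 and 3, and Bglap was at 113, 446 and 260 CPM. Whether the content of either cell type sets the level of Wnt4 was not tested. With the muscle score in the fit the log2 fold change of Wnt4 was 0.42.

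Wnt16 was at 2.59, 0.883, 2.72 and 1.14 CPM in the Controls, which form a high and a low pair, and ran from 1.64 through 2.33 to 2.93 in BMAd-DTA. Its log2 fold change was 0.34 (SE 0.31, edgeR adjusted p = 0.637). Wnt9a was at 2.48, 1.59, 2.07 and 1.19 CPM in the Controls and at 1.08, 1.81 and 3.50 at the lowest, median and highest BMAd-DTA mouse. All Control values of Wnt9a lay inside the BMAd-DTA range, and its log2 fold change was 0.21 (SE 0.36, edgeR adjusted p = 0.824).

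**Figure D3:**
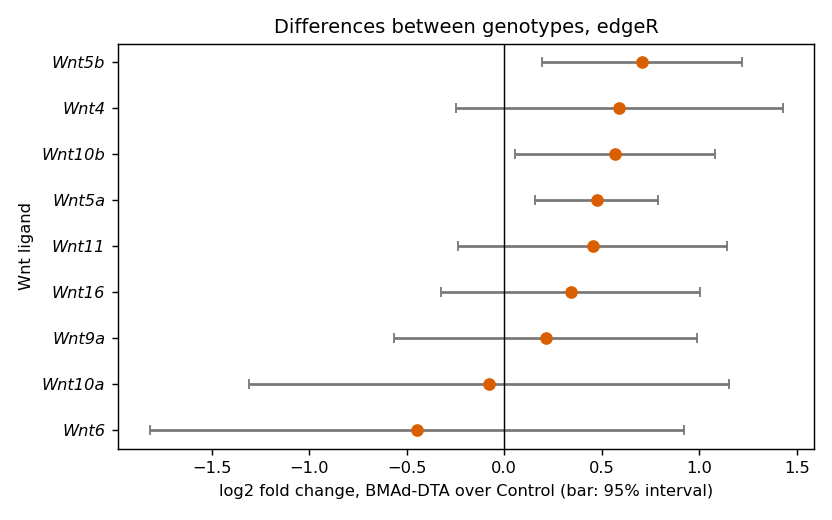
Log2 fold change of BMAd-DTA over Control for the 9 ligands tested, with bars giving the 95% interval from edgeR's quasi-likelihood fit. Wnt5a, Wnt5b and Wnt10b have intervals above 0 before adjustment, and the interval of Wnt6 reaches from -1.82 to 0.92.

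The osteoblast and osteocyte markers moved with genotype. When the score of those markers, their mean log2 CPM, was added to the fit, the log2 fold changes were lower for Wnt5b, at 0.13, for Wnt10b, at 0.15, and for Wnt4, at -0.49. They were higher for Wnt9a, at 0.89, Wnt11, at 0.67, and Wnt16, at 0.54. That of Wnt5a was 0.45 in place of 0.47, that of Wnt10a was -0.18 and that of Wnt6 was -0.077. In this fit no gene of the 16496 passed the adjusted test, with 591 at an unadjusted p under 0.05. The marker scores of the 2 genotypes did not overlap, so that bone cell RNA and genotype cannot be told apart. Tendon and periosteum markers also had higher sums in BMAd-DTA, at 281 to 511 CPM against 205 to 288, with 6 of 7 positive. By edgeR 3 had an unadjusted p under 0.05 and 0 passed the adjusted test. Within the sum, Postn ran from 51.7 to 126 CPM in Controls and from 158 to 317 in BMAd-DTA. Fmod overlapped, at 91.7 to 116 and 86.7 to 177 CPM. With their score in the fit the changes were 0.54 for Wnt5a, 0.88 for Wnt5b and 0.74 for Wnt10b.

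The spread of each ligand within its groups was larger than counting alone gives, which would be a chi-square of about 1 per degree of freedom. It was 39.8 for Wnt4 and 11.8 for Wnt10b, and 2.84 for Wnt5a and 2.56 for Wnt11, the lowest of the 10. This value grows with depth, so that it does not rank the ligands by relative spread. As a coefficient of variation over the 11 mice, the spread was 107% for Wnt2b, 67.3% for Wnt6, 62.6% for Wnt10a, 52.9% for Wnt4 and 32.5% for Wnt10b, and the lowest was 21.3% for Wnt5a. Counts per library were 72 to 300 for Wnt4, 102 to 187 for Wnt5a, 41 to 123 for Wnt5b and 86 to 248 for Wnt10b. They were 2 to 33 for Wnt6, 19 to 64 for Wnt9a, 3 to 29 for Wnt10a, 11 to 39 for Wnt11 and 15 to 51 for Wnt16.

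Wnt2b was the one ligand whose exons held more reads of the opposite strand than of its own. It is a beta-catenin-dependent ligand best known from eye and liver development. On its own strand the Controls had 0.055, 0.294, 0.768 and 0.207 CPM, and BMAd-DTA had 0.172 at the lowest, 0.266 at the median and 1.83 at the highest, from 1 to 31 counts a library. Most libraries were close to the floor of 3 counts, and BMAd-DTA replicates 1 and 4 and Control replicate 3 were above the rest. On the opposite strand the exons held 239 read pairs against 93 on the own strand, or 72.0% of the total. Those opposite-strand pairs were present in every mouse, at 10 to 24 in Controls and 15 to 34 in BMAd-DTA and the ranges of the genotypes overlapped. GENCODE M21 places no gene on that strand. In the other 9 members the opposite-strand share was at most 1.58%, in Wnt6, also where a gene overlaps on the other strand, as for Wnt5a, Wnt5b, Wnt6 and Wnt11. An unstranded count would therefore have given Wnt2b 332 read pairs in place of 93.

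**Figure D4:**
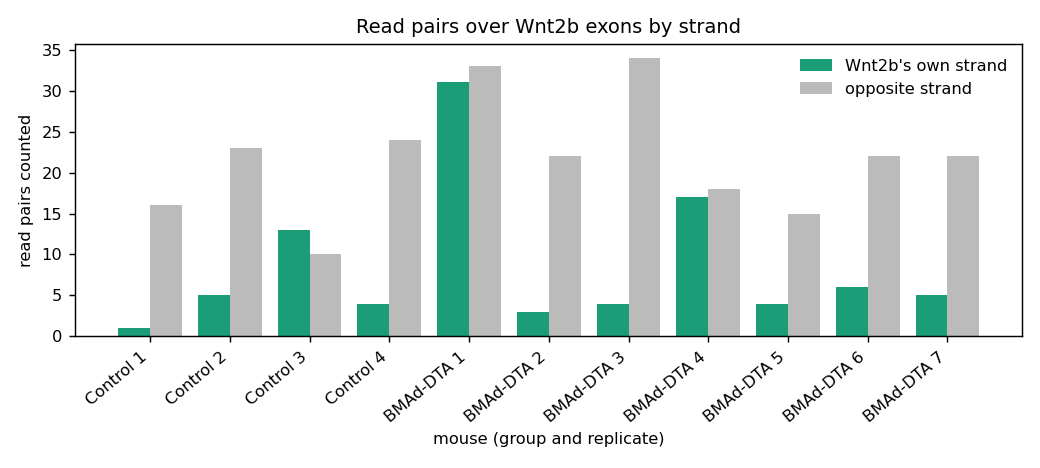
Read pairs over Wnt2b exons in each of the 11 mice, counted on the strand of Wnt2b and on the opposite strand. The opposite-strand bars are the taller ones in 10 of 11 mice, and own-strand counts reach 31 in BMAd-DTA replicate 1.

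The family has 19 genes in the annotation, and 9 lie outside the list. Wnt1, whose mutations cause brittle bone disease, had 9 to 33 counts in every library. Its mean of 0.435 CPM per kb was close to that of Wnt6, at 0.440, and above those of Wnt11, Wnt10a and Wnt2b. The log2 fold change of Wnt1 was 0.38 (SE 0.43, edgeR adjusted p = 0.716). The other 8 were lower. Wnt2 had 47 counts over 9 libraries, and Wnt9b 15 over 7. Wnt7b had 27 counts, in 7 of 7 BMAd-DTA libraries at 1 to 6 counts and in 1 of 4 Controls at 3. BMAd-DTA replicates 3, 6 and 7, at 2, 1 and 2 counts, were under the floor of 3 counts. The remaining genes were sparser, with 9 counts of Wnt3a, of which 7 were in 1 BMAd-DTA library, 8 of Wnt8a, 3 of Wnt3, 3 of Wnt7a and 2 of Wnt8b. None of these 8 genes passed the low-count filter. DESeq2 gave Wnt7b an unadjusted p of 0.0616, Wnt2 0.338 and Wnt9b 0.874, with no adjusted p.

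For each tested ligand, the genes whose log2 CPM followed it most closely over the 11 mice were found among 11931 or 11932 genes with a mean of at least 5 CPM. These are descriptions with no test, over mice that differed in genotype and in bone cell marker level, so that genes can follow one another through either. The highest was Tead3 with Wnt10b, at a Pearson r of 0.95, followed by Nckap5l and Sytl2 with Wnt5b, each at 0.94. Angpt4 and Lrp4 each reached 0.91 with Wnt4. Lrp4, a co-receptor and a partner of sclerostin, was the one pathway gene among these nearest neighbours, and its rank correlation with Wnt4 was 0.96. For Wnt5a they were Mpzl3 at 0.89 and Plxna1 at 0.88, and for Wnt9a Scara5 at 0.91 and Prelp at 0.88. For Wnt6 they were Eng at 0.88 and Ifi27 at 0.87, and for Wnt10a Zfp958 and Grwd1, each at 0.85. Ptges and Fblim1 followed Wnt11 at 0.89. Egr1 followed Wnt16 at 0.90 with a rank correlation of only 0.63, and Dynlrb1 at 0.88. No gene was named for more than 1 ligand. Only the closest of 11931 or 11932 genes were kept for each ligand, so a lack of repeats cannot show separate partners. The highest r that unrelated genes would reach over 11 mice was not tested.

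The machinery that makes, receives and answers these ligands was listed as 78 genes in 8 roles, of which 71 were tested. Fitted levels were higher in BMAd-DTA for 56 and lower for 15, beside 50.4% higher over all genes tested. By edgeR's quasi-likelihood test 0 passed the adjusted threshold, and the smallest adjusted p was 0.0675. An unadjusted p under 0.05 was reached by 27 higher and 2 lower. Of all tested genes 16.4% did so in either direction and 7.89% with BMAd-DTA higher. DESeq2 called 16, all higher, where it called 5.42% of the genes given an adjusted p, or 2.78% in the higher direction. The median log2 fold change was 0.21, and 11 had groups without overlap, as did 2.81% of all tested genes. With the osteoblast and osteocyte score in the fit, 5 pathway genes had an unadjusted p under 0.05 in place of 29, and none passed the adjusted test. Over all 16496 genes tested, 591 did in place of 2708, so that the fall was not particular to the pathway.

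Of the genes that process the ligand itself, all 4 were higher in BMAd-DTA and 3 had an unadjusted p under 0.05. Notum, the enzyme that strips the lipid from the serine shown above, had a log2 fold change of 1.001 (edgeR adjusted p = 0.111), from 1.72 ± 0.322 to 3.44 ± 1.32 CPM, with groups that did not overlap. Porcn, the enzyme that adds it, had 0.63 (edgeR adjusted p = 0.147) and Trabd2b, a membrane protease that inactivates Wnts, 0.42. Among 10 Frizzled receptors 6 were higher and 4 lower, with Fzd5 at 0.48 and Fzd2 at -0.44. All 7 co-receptors were higher, with Lrp5, a determinant of bone mass, at 0.31 and Lrp4 at 0.54. Of 8 R-spondins and their receptors 5 were higher, led by Lgr4 at 0.51.

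Secreted and membrane antagonists were higher in 11 of 12 cases. Sost, the osteocyte product sclerostin that binds Lrp5 and Lrp6, had a log2 fold change of 0.80 (edgeR adjusted p = 0.0675), from 125 ± 22.3 to 216 ± 46.8 CPM. Wif1, which binds Wnts, had 1.02, Dkk1, which blocks Lrp6, had 0.93, and Sfrp1, a soluble decoy for Wnts, had 0.83. Downstream, Ctnnb1, which encodes beta-catenin, had 0.31, and 12 of 16 transducers were higher. All 6 tested beta-catenin target genes were higher, with a median of 0.46. By edgeR 4 of them had an unadjusted p under 0.05, and 2 had groups without overlap. The smallest p values were those of Tnfrsf19, at 0.70, and Ccn4, at 0.98. Planar polarity genes were mixed, 5 higher and 3 lower, with Daam2 at 0.62 and its relative Daam1 at -0.34. The ligands, their processing enzymes and their antagonists thus had positive medians alike, and none of these values passed edgeR's adjusted test.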

How the data were processed

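Whole distal tibiae were snap-frozen and powdered, and RNA was sequenced as strand-specific paired-end libraries, 1 per mouse. According to the submitters' processing notes and the methods, the authors checked reads with FastQC 0.11.9, aligned them to mm10 with STAR and used DESeq2. The annotation release is not given in the sources used here, and 98.1% of the table's gene IDs match GENCODE M21 (GRCm38, the assembly of mm10), which supplied positions, exon lengths and sequences. The deposited values are raw counts of read pairs per gene. The merged table equals the column for the sense strand in 100% of cells and holds genes with at least 11 counts in all. Column totals of 16969529 to 18637663 set the precision, and 3 counts, the floor used here, are 0.156 to 0.177 CPM.

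In R 4.3.3, edgeR 4.0.16 was run on all 11 libraries (filterByExpr, TMM, glmQLFit, glmQLFTest, genotype only, two-sided), with Benjamini-Hochberg adjustment over 16496 genes and a threshold of 0.05. The standard error is the log2 fold change over the square root of F. CPM used TMM-scaled totals. Alternatives were DESeq2 1.42.0, its size factors in edgeR, limma-voom 3.58.1, other filters, the per-library counts, no globin or mitochondrial genes, a skeletal muscle score and each mouse left out. Osteoblast and tendon scores as covariates were chosen after seeing the data. The script was tested on simulated data. Labels give groups and mouse identities but no replicate numbers, which follow sample order. No 2 libraries of a group were alike (lowest chi-square per gene 18.3).

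All 10 members are named. The 2 genes most alike to each tested member are those of highest Pearson r of log2 CPM (prior count 2), and pathway genes named have an unadjusted p under 0.05, at most 4 a role by smallest p. The members and lists were chosen with earlier results of these data known. Marker lists not described in the results gave summed CPM in Control and BMAd-DTA of 2166 to 4198 and 3551 to 5217 (cartilage), 3286 to 4964 and 3256 to 5272 (marrow stroma), 5.79 to 22.5 and 7.12 to 25.0 (keratinocyte, 3 of 7 genes in the table used), 389 to 880 and 628 to 1489 (B lineage), and 18318 to 20826 and 14763 to 21971 (neutrophil). None of their genes passed edgeR's adjusted test.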

Additional observations from a re-analysis of the deposited data

Results flagged for a closer look

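Wnt4 in Control replicate 3 stood apart from its group, at 12.1 CPM where the nearest Control had 4.96. The gap was 0.854 of the group's range, above Dixon's 95% critical value of 0.829 for 4 samples. Chance alone gives about 1 such result in 20 groups, and 20 groups were examined, so that 1 is the number chance gives. The same library had the highest skeletal muscle marker sum of all, 998 CPM, and the highest osteoblast and osteocyte sum of the Controls, 12780 CPM. Wnt4 was higher still in BMAd-DTA replicates 2 and 3, where muscle markers summed to 15.4 and 20.5 CPM and osteoblast and osteocyte markers to 31334 and 35627 CPM. Control replicates 2 and 4 had osteoblast and osteocyte sums of 11210 and 11216 CPM with Wnt4 at 4.83 and 3.73 CPM. BMAd-DTA replicate 1 had a sum of 15081 CPM with Wnt4 at 4.89 CPM, and most of that sum was Col1a1 and Col1a2. Its Runx2, at 139 CPM, was above the 105 and 123 CPM of BMAd-DTA replicates 2 and 3. Its Bglap, at 113 CPM, was below their 446 and 260 CPM. The log2 fold change of Wnt4, 0.59, was 0.42 with the muscle score in the fit and -0.49 with the osteoblast and osteocyte score. The cause of the high value in Control replicate 3 was not tested.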

How the results depend on the processing

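No paired analysis was made, because each library came from a different mouse and the labels pair no mice. Over 21 alternatives, edgeR and limma-voom called 0 members, and DESeq2 called 1, Wnt5a. Over all genes the count of 13 (12 higher) became 845 (433 higher) with DESeq2, 20 (15 higher) with its size factors in edgeR, 238 (131 higher) with limma-voom, 3 with the muscle score, 1 with the tendon score and 0 with the osteoblast score. Leaving out 1 mouse gave 0 to 292 calls. It was 292 without Control replicate 3 and 89 without Control replicate 4, 8 without BMAd-DTA replicate 3 and 3 without BMAd-DTA replicate 4. It was 0 without Control replicates 1 or 2 or BMAd-DTA replicates 1 or 6, with 1784, 2239, 2626 and 2528 genes at an unadjusted p under 0.05. Pathway calls, 0 by edgeR, were 16 with DESeq2, 8 with limma-voom and 0 to 6 with 1 mouse left out, 6 of them without Control replicate 3. Signs reversed for Wnt4, at -0.49 with the osteoblast score, and for Wnt10a, at 0.36 with limma-voom and -0.41 to 0.46 with 1 mouse left out, where it was 0.46 without Control replicate 3, 0.052 without BMAd-DTA replicate 3 and 0.10 without BMAd-DTA replicate 4. The cause was not tested. Wnt5a ran from 0.42 to 0.54 over all alternatives, Wnt5b from 0.13 to 0.95 and Wnt10b from 0.15 to 0.74. With 1 mouse left out, Wnt9a ran from 0.045 (without BMAd-DTA replicate 4) to 0.39 (without Control replicate 1), Wnt16 from 0.11 (without Control replicate 2) to 0.59 (without Control replicate 3), Wnt6 from -0.77 (without BMAd-DTA replicate 6) to -0.087 (without Control replicate 3) and Wnt4 from 0.39 (without BMAd-DTA replicate 3) to 1.10 (without Control replicate 3). None of these ligands passed the adjusted test in those fits. The number of Controls, 4, limits the precision.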
